A study of Homo sapiens with 4 samples.

Results

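AP-1 is a dimeric transcription factor assembled from FOS-family and JUN-family proteins, and the 7 genes FOS, FOSB, FOSL1, FOSL2, JUN, JUNB and JUND, which encode its core subunits, are described here across 4 RNA sequencing libraries of MDA-MB-231 cells. They were taken by gene name from deposited tables of 58735 genes, in which each name occurs once. All 7 were above the filter of a mean of 1 CPM (reads of a gene scaled to a common library size), which 14585 genes passed, with between 222 reads (FOSB in Bulk) and 6796 reads (JUN in eGFP) per gene and library.

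FOS-family proteins bind DNA as heterodimers, mainly with a JUN-family partner, whereas JUN-family proteins also dimerise with each other. FOS and FOSB carry strong activation domains that FOSL1 (FRA-1) and FOSL2 (FRA-2) lack, and JUNB is a weaker activator than JUN at many AP-1 sites. Because a cell's dimers depend on which subunits it holds, the mix of the members is of interest beside their levels. In triple-negative breast cancer lines of mesenchymal type, FOSL1 is known as an abundant subunit linked to invasion.

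MDA-MB-231 is a long-established line from a triple-negative breast tumour, human in origin, and all cells carried a doxycycline-inducible histone H2B-eGFP reporter (TetOn-H2BeGFP). All 4 populations came from cells given doxycycline at 5 μg/ml for 3 days, stained with Claret and Violet dyes and chased for 12 days, during which label is diluted by division. Claret, eGFP and Violet are the sorted 1% of cells that retained most of the named label, taken as slow-cycling cells, and Bulk was sorted with no gate on fluorescence. Each population gave 1 library, so no difference below has a replicate check, and intervals cover counting error alone. The labels do not say whether the line was 1 clone.

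Libraries are named by their titles, which match the column names of the deposited counts and FPKM. The treatment field of every sample names another population, so that the library titled Bulk is called Claret there and the one titled Violet is called un-gated. The library titled Bulk held 6778 reads of MKI67, a proliferation marker, and the other 3 held 689 to 995, and all 6 proliferation genes listed were lower in those 3, with median log2 ratios of -2.12 (Claret), -2.49 (eGFP) and -2.15 (Violet). The part of this difference in proliferation genes in the results for FOS and JUN genes was not tested. Values with groups from the treatment field are given with the other alternatives. Summed counts were 15508179 to 16976909 per library. All 5 markers expected in this line passed the filter, VIM with 156 to 211 FPKM (fragments scaled by gene length and library total). Of 7 markers expected to be absent 2 passed, EPCAM with 28 to 61 reads and PECAM1 with 54 to 87, while ESR1 had 3 to 7 reads and PGR had none, 0 reads in each library, a count compatible with up to 0.191 CPM. In RNA from sorted populations, fewer expressing cells and less RNA per cell cannot be told apart.

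The JUN family was higher in all 3 slow-cycling libraries, and its make-up was different from that in Bulk. JUNB and JUND, the members with the fewest JUN-family reads in Bulk, were the members farthest above Bulk in each slow-cycling library, while JUN differed less. JUNB was past 2-fold in each by TMM-scaled CPM, library totals, DESeq2 size factors and log2(FPKM + 1). JUND was past 2-fold in each by TMM-scaled CPM, but in none of the 3 after a correction for GC content, and not in Violet by FPKM or DESeq2 size factors. The upstream sequences of these 2 genes are shown beside that of FOSL2, because these 3 members lay farthest above and below Bulk. They are RefSeq sequences (GRCh38.p14) from the 250 bases before the RefSeq start of each gene, and that of FOSL2 stops before its first GENCODE 29 coding transcript, within the span annotated there for the gene. Capitals mark matches on either strand to the cyclic AMP response element TGACGTCA, its half-site TGACG, which the full element contains, or CCAAT.

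JUNB, chr19:12791236-12791485, plus strand: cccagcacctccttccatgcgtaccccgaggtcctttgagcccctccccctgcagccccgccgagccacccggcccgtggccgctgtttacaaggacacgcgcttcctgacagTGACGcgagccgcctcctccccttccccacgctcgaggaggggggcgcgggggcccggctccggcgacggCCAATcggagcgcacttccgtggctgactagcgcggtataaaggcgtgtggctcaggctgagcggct

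JUND, chr19:18281623-18281872, minus strand: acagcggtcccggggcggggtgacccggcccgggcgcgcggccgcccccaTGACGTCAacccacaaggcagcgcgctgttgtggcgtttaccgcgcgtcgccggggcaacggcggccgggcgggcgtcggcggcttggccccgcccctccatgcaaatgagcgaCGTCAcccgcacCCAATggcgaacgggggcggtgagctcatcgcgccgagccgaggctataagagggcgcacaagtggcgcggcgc

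FOSL2, chr2:28392608-28392801, plus strand: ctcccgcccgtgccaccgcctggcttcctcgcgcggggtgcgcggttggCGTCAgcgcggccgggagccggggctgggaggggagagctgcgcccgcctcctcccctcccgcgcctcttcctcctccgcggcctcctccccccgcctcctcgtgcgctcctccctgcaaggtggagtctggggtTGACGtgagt

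The table of promoters held 6 of the 7 members, all but FOSL1, and each of the 6 had at least 1 half-site in the 250 bases before its start, where 21.2% of all 35116 promoters in the table have one. The windows of JUNB, JUND, FOS, FOSB and FOSL2 were 70.8%, 74.8%, 69.4%, 65.5% and 76.3% G and C. Shares of all promoters, here and below, were not matched for GC content. The full element was found upstream of JUND, 200 bases from the start, and is present in 1.65% of all promoters. CCAAT was found once in each JUN-family gene and in none of FOS, FOSB and FOSL2, against 32.0% of all promoters. The sequences held for FOS, FOSB and FOSL2 were shorter than 250 bases, at 196, 249 and 194. A lack of match in these genes may thus cover fewer bases than the share of all promoters does. The AP-1 motif TGANTCA (6.57% of promoters) and the CArG box, the serum response element core (1.16%), had no match in these windows of any of the 6. Bases farther upstream were not searched, so these genes may hold either motif there. Matches describe the letters of the windows and were not tested for binding.

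JUNB (ENSG00000171223, chromosome 19, 12791496 to 12793315 in GRCh38, plus strand, 1 exon) had an FPKM of 29.4 in Bulk, against 111 (Claret), 129 (eGFP) and 92.8 (Violet). Bulk was thus the lowest library, with a gap to the next that exceeded the spread among the other 3. The log2 ratio to Bulk was 1.94 in Claret (95% exact interval of the read ratio 1.83 to 2.05), 2.15 in eGFP (2.05 to 2.27) and 1.71 in Violet (1.60 to 1.82). Among 19951 protein-coding genes ranked by FPKM, JUNB stood at place 1592 in Bulk, and at place 246 (Claret), 211 (eGFP) or 288 (Violet) among slow-cycling cells.

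JUND (ENSG00000130522, chromosome 19, 18279760 to 18281622, minus strand), often described as the most constitutively expressed JUN gene and linked to growth restraint, had an FPKM of 35.5 in Bulk, against 81.9 (Claret), 83.9 (eGFP) and 70.9 (Violet). It was again lowest in Bulk, and its log2 ratios were 1.22 (1.12 to 1.33), 1.27 (1.16 to 1.37) and 1.04 (0.94 to 1.15). JUND is very rich in G and C (69.7% of its longest transcript, above 99.7% of the genes kept). At that GC content, the curve fitted over all genes kept was 0.30 to 0.34 above Bulk. Few genes lie so high, and the fit used a fraction of 0.3 of the genes. The curve there thus rests also on genes of lower GC content. With this curve subtracted, the log2 ratios of JUND were 0.91, 0.93 and 0.74, all under 1. The value in Violet also missed 1 on the log2(FPKM + 1) scale (0.98) or with size factors of DESeq2 (0.995). The same correction left JUNB (64.9% GC) at 1.73, 1.93 and 1.50.

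JUN (ENSG00000177606, chromosome 1, 58780788 to 58784327, minus strand, 1 exon), the founding member and a strong activator, had an FPKM of 79.8 in Bulk, against 106 (Claret), 120 (eGFP) and 104 (Violet). Bulk was lowest here too, but the log2 ratios were 0.43 (0.37 to 0.48), 0.62 (0.56 to 0.67) and 0.43 (0.37 to 0.48), so that no library was past 2-fold.

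**Figure D1:**
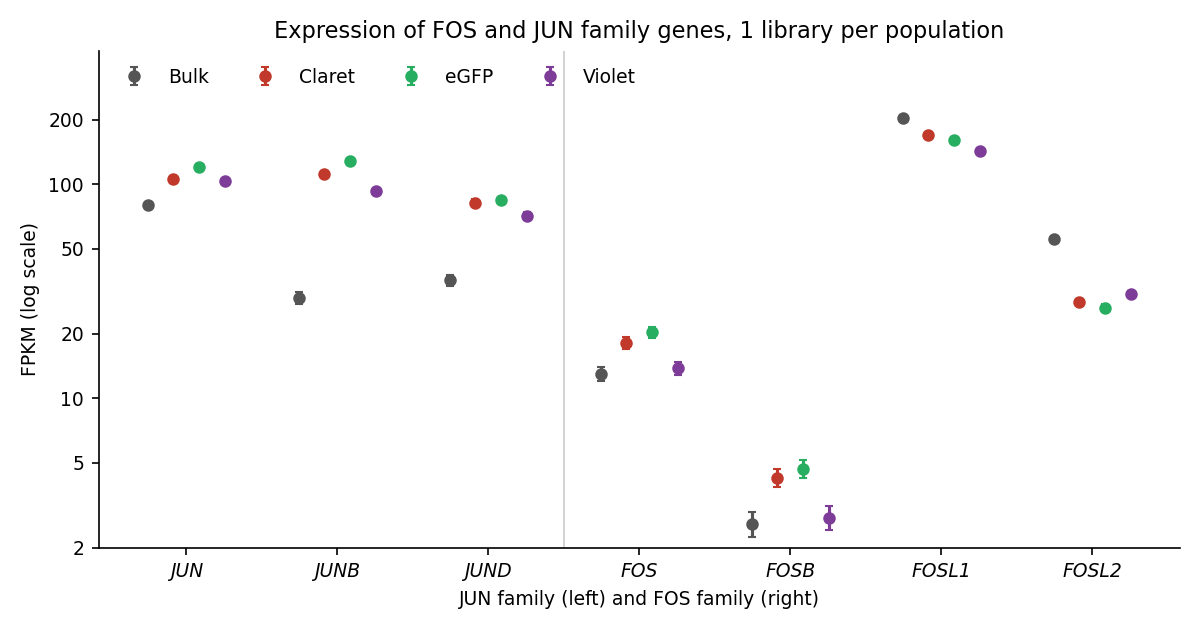
FPKM of the 7 genes (log axis) in each of the 4 libraries, 1 point per library, with 95% Poisson intervals of the read count as bars. JUNB and JUND sit lowest in Bulk, FOSL1 and FOSL2 sit highest in Bulk, and FOSL1 has the highest FPKM of the 7 genes in every library.

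In the FOS family the members split. FOSL1 and FOSL2 were below Bulk in all 3 slow-cycling libraries, while FOS and FOSB were above Bulk in Claret and eGFP and close to it in Violet. FOSL1 (ENSG00000175592, chromosome 11, 65892049 to 65900573, minus strand) had an FPKM of 203 in Bulk, against 170 (Claret), 161 (eGFP) and 144 (Violet). It was highest in Bulk and lowest in Violet, with log2 ratios of -0.24 (-0.29 to -0.19), -0.31 (-0.36 to -0.25) and -0.45 (-0.51 to -0.40). These differences are small beside the 2-fold limit, and FOSL1 kept the highest FPKM of the 7 genes in every library, at places 113 to 175 among protein-coding genes. That lead depends on gene length. By reads with no length, FOSL2 led the 7 genes in Bulk, with 6155 against 5964 for FOSL1. JUN then led in Claret (6366 against 5449 for FOSL1), eGFP (6796 against 4866) and Violet (5896 against 4350).

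FOSL2 (ENSG00000075426, chromosome 2, 28392448 to 28417312, plus strand) had an FPKM of 55.3 in Bulk, against 28.2 (Claret), 26.5 (eGFP) and 30.6 (Violet). The 3 slow-cycling libraries lay close together and well below Bulk, with log2 ratios of -0.95 (-1.01 to -0.89), -1.04 (-1.10 to -0.97) and -0.80 (-0.87 to -0.75). The value in eGFP was past 2-fold, although its interval included -1.

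FOS (ENSG00000170345, chromosome 14, 75278774 to 75282230, plus strand), the classical immediate-early subunit, had an FPKM of 13.0 in Bulk, against 18.1 (Claret), 20.3 (eGFP) and 13.8 (Violet). Claret and eGFP were above Bulk, with log2 ratios of 0.50 (0.35 to 0.64) and 0.67 (0.53 to 0.82). In Violet the ratio was 0.13 (-0.02 to 0.29), a difference not resolved at this depth. FOSB (ENSG00000125740, chromosome 19, 45467995 to 45475179, plus strand) was the least abundant member, with an FPKM of 2.57 in Bulk against 4.24 (Claret), 4.68 (eGFP) and 2.76 (Violet). It showed the same order as FOS, with ratios of 0.74 (0.50 to 0.98), 0.88 (0.65 to 1.13) and 0.15 (-0.12 to 0.42). FOSB has 13 transcripts in GENCODE 29, and counts per gene do not separate the full-length form from the truncated ΔFosB.

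Past the 2-fold limit (a log2 ratio of at least 1 in size), 2 of the 7 genes were higher in each slow-cycling library, JUNB and JUND in all cases, against 11.3% (Claret), 12.0% (eGFP) and 11.7% (Violet) of all genes kept. In the lower direction FOSL2 was the 1 of 7 to pass in eGFP, and 0 of 7 passed in Claret or Violet, against 6.72% (Claret), 7.64% (eGFP) and 6.92% (Violet) of all genes. All 7 members were also among the 10112 genes with a mean of at least 10 CPM. Of these genes, 612 (Claret), 681 (eGFP) and 615 (Violet) were past 2-fold higher, and 639, 747 and 715 lower. The share of genes higher was thus smaller at that filter. The 3 comparisons share the Bulk library and are not independent of each other. The median over the 7 genes was 0.50 (Claret), 0.67 (eGFP) and 0.15 (Violet), and over all genes kept it was -0.01, -0.01 and 0.01. By family, the median was 1.22, 1.27 and 1.04 for JUN genes and 0.13, 0.18 and -0.16 for FOS genes.

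**Figure D2:**
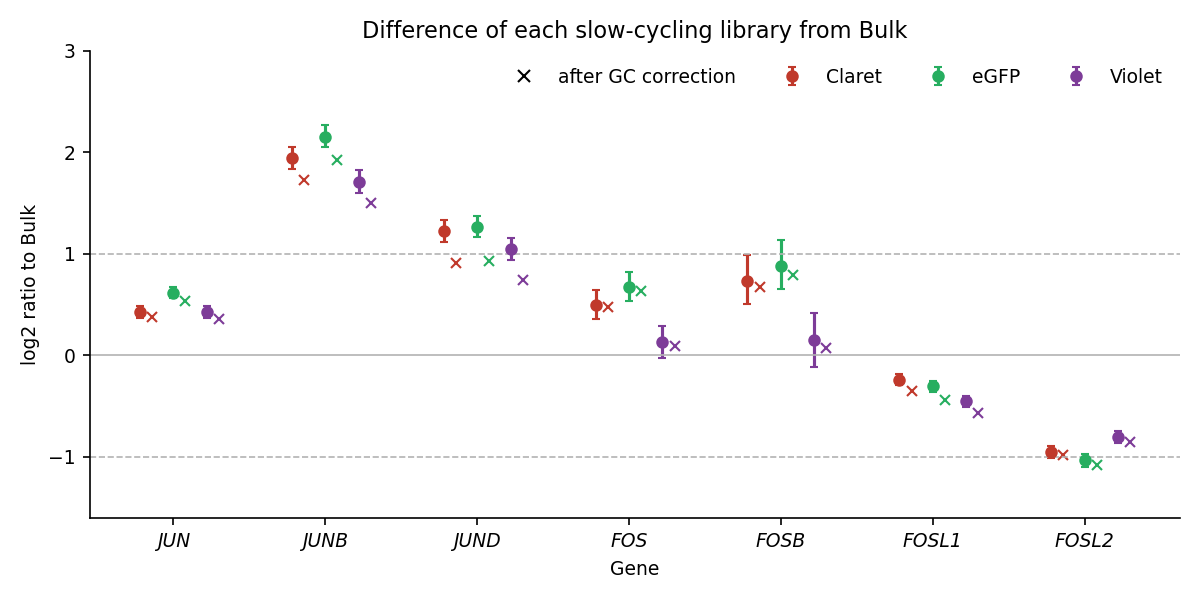
Log2 ratio to Bulk of each gene in Claret, eGFP and Violet (filled points, with 95% exact intervals of the read ratio) and the same after subtraction of a curve over GC content (crosses). Dashed lines mark 2-fold; JUNB stays above 1 in all 3 libraries with and without the correction, and JUND does not after it.

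The mix of JUN-family transcripts was described by each member's share of the summed JUN-family FPKM, which does not depend on how libraries are scaled. In Bulk, JUN made up 55.1% (95% interval 53.8 to 56.5), JUND 24.6% (23.3 to 25.8) and JUNB 20.3% (19.1 to 21.5). In Claret, JUNB held 37.2% (36.3 to 38.2), JUN 35.4% (34.6 to 36.2) and JUND 27.4% (26.5 to 28.2). The mix in eGFP was 38.7% JUNB, 36.1% JUN and 25.2% JUND, and in Violet 34.7% JUNB, 38.8% JUN and 26.5% JUND. By FPKM, a family led by JUN in Bulk was thus a mix of 3 members in the slow-cycling libraries, in which JUN and JUNB held similar shares and JUND the smallest.

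From Bulk, the share of JUNB was higher by 16.9 percentage points in Claret (15.4 to 18.4), 18.4 in eGFP (16.9 to 19.9) and 14.4 in Violet (12.9 to 16.0). The share of JUN changed by -19.7 points in Claret (-21.3 to -18.2), -19.0 in eGFP (-20.6 to -17.5) and -16.4 in Violet (-18.0 to -14.7), although its own level was above that in Bulk. JUND, whose level was also above that in Bulk, kept nearly its share, with changes of 2.80 points (1.28 to 4.32), 0.68 (-0.82 to 2.18) and 1.95 (0.39 to 3.51). After the GC correction the change of JUND was 0.40, -1.66 and -0.34 points, so its direction depends on that setting. JUNB accounted for 53.1%, 52.8% and 51.7% of the added JUN-family FPKM in Claret, eGFP and Violet, JUND for 30.0%, 25.8% and 28.8%, and JUN for 16.9%, 21.5% and 19.5%.

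Which member leads depends on the length used. Counted as reads with no length, JUN led in all 4 libraries, with 70.2% of JUN-family reads in Bulk (exact binomial interval 69.1 to 71.4), 51.4% (Claret), 52.1% (eGFP) and 54.9% (Violet), against 13.3% for JUNB in Bulk and 27.8%, 28.7% and 25.3% in the slow-cycling libraries. The deposited lengths are 3540 bases for JUN, 1820 for JUNB and 1863 for JUND, and JUN likewise led when reads were divided by coding length. The direction of the JUN and JUNB changes was the same with each length.

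The FOS-family mix differed less from Bulk by FPKM. FOSL1 made up 74.2% of the summed FOS-family FPKM in Bulk (73.5 to 74.8), FOSL2 20.2% (19.6 to 20.7), FOS 4.73% (4.39 to 5.10) and FOSB 0.938% (0.822 to 1.07). FOSL1 led in the slow-cycling libraries as well, with 77.1% (Claret), 75.8% (eGFP) and 75.3% (Violet), and FOSL2 held 12.8%, 12.4% and 16.1%. FOS held 8.20% (Claret), 9.55% (eGFP) and 7.22% (Violet), and FOSB held 1.92%, 2.20% and 1.45%.

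The share of FOSL2 changed by -7.39 points in Claret (-8.11 to -6.66), -7.74 in eGFP (-8.47 to -7.00) and -4.12 in Violet (-4.92 to -3.31). FOS gained 3.46 points in Claret (2.85 to 4.08), 4.82 in eGFP (4.15 to 5.49) and 2.49 in Violet (1.86 to 3.12). FOSL1 had a larger share than in Bulk despite its lower level, by 2.94, 1.66 and 1.12 points with intervals above 0, which became 1.87, 0.47 and 0.20 after the GC correction. By reads with no length, FOSL2, whose deposited length is 7157 bases, was the largest FOS-family member in Bulk, at 47.4% against 45.9% for FOSL1. It then held 33.4% (Claret), 32.4% (eGFP) and 39.9% (Violet), against 53.0%, 52.0% and 49.3% for FOSL1. Thus the change of FOSL2 was about 2 times larger by reads than by FPKM, at -14.0, -15.0 and -7.51 points.

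**Figure D3:**
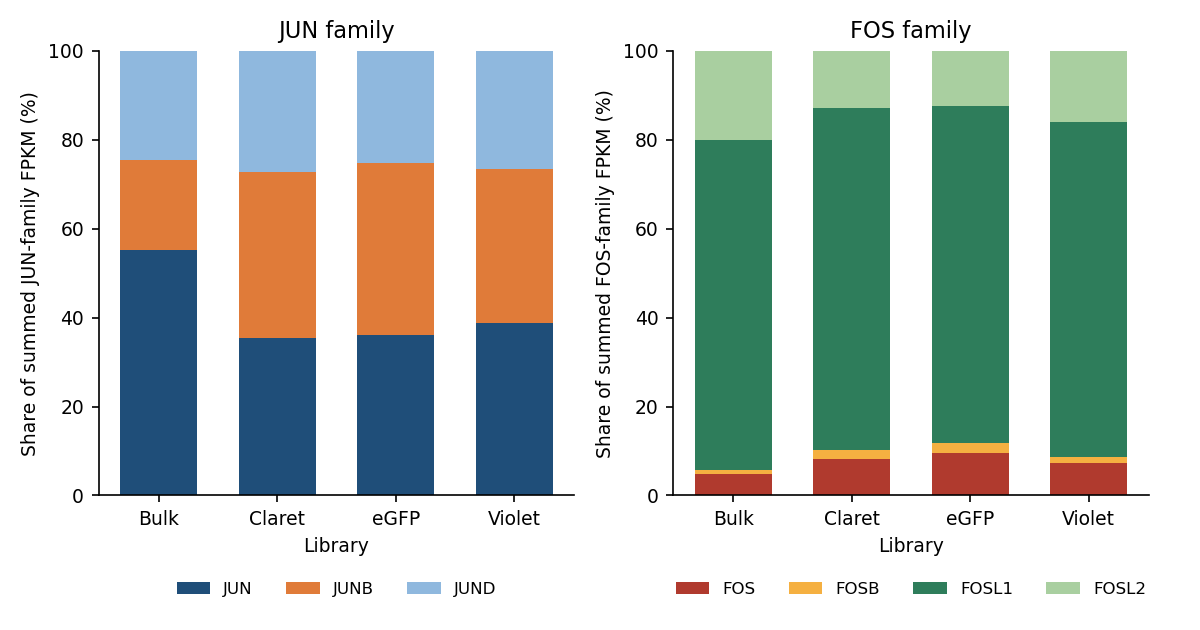
Share of each member (percent of the summed FPKM of its family) in the 4 libraries, JUN family on the left and FOS family on the right. JUNB goes from 20.3% in Bulk to between 34.7% and 38.7% in the slow-cycling libraries, and FOSL2 from 20.2% to between 12.4% and 16.1%.

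The ratio of reads between 2 members of a family, compared between 2 libraries, needs neither gene length nor library scaling. The log2 change of JUN over JUNB from Bulk was -1.51 in Claret (Fisher's exact conditional 95% interval -1.64 to -1.39), -1.54 in eGFP (-1.66 to -1.42) and -1.28 in Violet (-1.41 to -1.16). JUN over JUND changed by -0.79, -0.65 and -0.62, and JUNB over JUND by 0.72, 0.89 and 0.66. All 9 intervals of the JUN-family pairs against Bulk excluded 0, as did 15 of the 18 in the FOS family. The 3 that included 0 were those of FOS over FOSB, at -0.24 (-0.53 to 0.04), -0.21 (-0.50 to 0.07) and -0.02 (-0.33 to 0.30). The widest FOS-family change was that of FOSB over FOSL2, at 1.69, 1.93 and 0.95, followed by FOS over FOSL2 at 1.45, 1.71 and 0.94. These intervals compare the libraries, not the conditions.

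**Figure D4:**
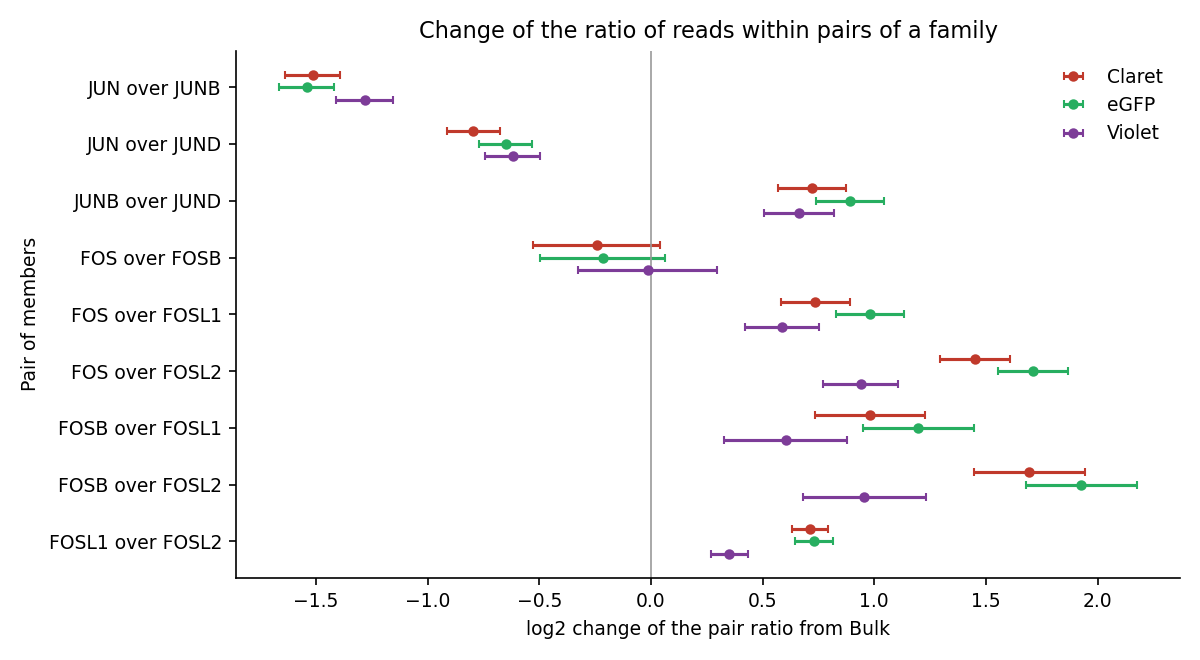
Log2 change from Bulk of the ratio of reads between 2 members of a family, in Claret, eGFP and Violet, with Fisher's exact conditional 95% intervals. JUN over JUNB lies between -1.54 and -1.28 in all 3 libraries, FOS over FOSB spans 0 in each, and every FOS-family ratio that has FOSL2 below the line lies above 0.

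Summed over members, the JUN family had 145 FPKM in Bulk (141 to 149), 299 in Claret (294 to 305), 333 in eGFP (327 to 339) and 267 in Violet (262 to 273). The FOS family had 274 FPKM in Bulk (269 to 280), 221 in Claret (216 to 225), 213 in eGFP (208 to 218) and 191 in Violet (186 to 195). The JUN sum was thus 2.07, 2.30 and 1.85 times that of Bulk, and the FOS sum 0.805, 0.776 and 0.696 times. Over the 7 genes together the sum was 1.24, 1.30 and 1.09 times that of Bulk.

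The ratio of the JUN-family to the FOS-family sum was 0.528 in Bulk (0.511 to 0.545), 1.36 in Claret (1.32 to 1.39), 1.56 in eGFP (1.52 to 1.61) and 1.40 in Violet (1.36 to 1.45). FOS-family transcripts were in excess in Bulk, and JUN-family transcripts in each slow-cycling library. The log2 change of the ratio was 1.36 (1.30 to 1.42), 1.57 (1.50 to 1.63) and 1.41 (1.34 to 1.47). With coding length in place of the deposited length, the ratio was 0.431 in Bulk and 1.06 (Claret), 1.23 (eGFP) and 1.08 (Violet), which leaves the slow-cycling libraries nearer to balance. Transcript sums are not protein amounts, which were not measured here.

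**Figure D5:**
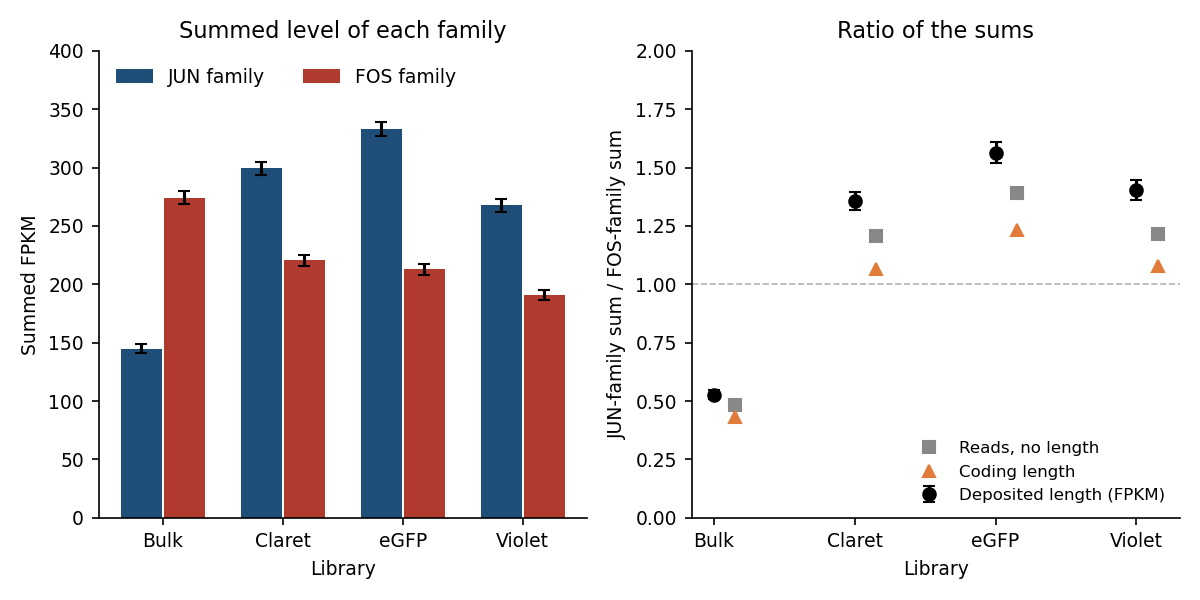
Left, summed FPKM of the JUN family and the FOS family in each library, with 95% intervals from Poisson counting error; right, the ratio of the 2 sums with the deposited length, with no length and with coding length. The ratio is 0.528 or less in Bulk and above 1 in the other 3 libraries with each length.

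Ordered by FPKM, the genes ran FOSL1, JUN, FOSL2, JUND, JUNB, FOS and FOSB in Bulk. The order was FOSL1, JUNB, JUN, JUND, FOSL2, FOS and FOSB in both Claret and eGFP, and in Violet JUN and JUNB changed places. FOSL2 thus moved from place 3 to place 5 and JUNB from place 5 to place 2 or 3. Neighbours in these orders differed beyond counting error, least clearly JUNB and JUN in Claret, with an FPKM ratio of 1.05 (1.01 to 1.10), and in eGFP, with 1.07 (1.03 to 1.11).

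The JUN-family mixes of the slow-cycling libraries lay closer to each other than to Bulk, although 6 of their 9 pair ratios excluded 0. The share that would have to move between members to turn one mix into another was 2.12 points between Claret and eGFP, and 3.37 and 3.95 points from Violet to these 2 libraries, against 19.7, 19.0 and 16.4 points from Bulk to Claret, eGFP and Violet. For the FOS family it was 1.63, 3.27 and 3.62 points between slow-cycling libraries, against 7.39, 7.74 and 4.12 points from Bulk. Hence the FOS-family mix of Violet lay about as far from eGFP (2.87 to 4.37) as from Bulk (3.31 to 4.92). FOSB was 0.59 above Violet on the log2 scale in Claret (0.36 to 0.83) and 0.74 in eGFP (0.51 to 0.97), and FOS 0.36 (0.22 to 0.50) and 0.54 (0.40 to 0.68). FOSL2 was below Violet in both, at -0.15 and -0.23. None of the 7 genes was past 2-fold between slow-cycling libraries, a limit passed upward by 0.501%, 0.329% and 0.377% of all genes for Claret over eGFP, Claret over Violet and eGFP over Violet, and downward by 0.644%, 0.727% and 0.912%.

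Some reads could belong to genes on the opposite strand. JUNB lies within HOOK2, for which Bulk gave 318 reads and the slow-cycling libraries 615 to 695. Of the 31-base words of JUNB transcripts 12.8% occur in other genes, against 6.86% for FOSL1, 0.98% for FOSB and 0.05% for JUND. For JUN, FOS and FOSL2 the share was 0. FOSB lies within ERCC1, for which Bulk gave 645 reads and the rest 1034 to 1232. Use of strand in counting is not given in the sources used here, and the part of HOOK2 and ERCC1 in the results for JUNB and FOSB was not tested.

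Genes around the 7 members were taken from lists written with earlier results of these data known. Of 8 other bZIP proteins that pair with FOS or JUN proteins, 7 passed the filter, and 4, 4 and 3 of these were past 2-fold higher in Claret, eGFP and Violet and 0 lower, with list medians of 1.20, 1.20 and 0.76. For this and the lists that follow, the share of all genes kept past the limit was 11.3%, 12.0% and 11.7% higher and 6.72%, 7.64% and 6.92% lower, with all-gene medians of -0.01, -0.01 and 0.01. ATF3, a stress-induced partner of JUN proteins, had 34 Bulk reads against 356, 380 and 318 in slow-cycling libraries, with log2 ratios of 3.21, 3.40 and 3.15. ATF4, the effector of the integrated stress response, was at 1.86, 1.78 and 1.70. JDP2, a repressive partner of JUN proteins, was at 1.50, 1.74 and 1.80. The fourth gene was BATF2 at 1.20, 1.20 and 0.76, named after its values were seen.

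Of 11 kinases upstream of AP-1, 1 was past 2-fold higher in each library and 0 were lower, with medians of -0.27, -0.24 and -0.35, and the count higher is near the 11.3% to 12.0% of all genes. The gene was RPS6KA2, which encodes an ERK-activated kinase, at 1.76, 1.72 and 1.89. Among 7 genes that drive transcription of FOS, 0 were higher and 1 was lower in Claret and in eGFP, MRTFB at -1.11 and -1.25 (-0.76 in Violet), named after its values were seen. The list medians were -0.19, -0.33 and -0.29, and the counts are near the shares of all genes (11.3% to 12.0% higher, 6.72% to 7.64% lower). Of 11 genes that act on the turnover of AP-1 transcripts and proteins, in either direction, 1, 2 and 1 were higher and 1 was lower in each library. Their medians were 0.13, -0.31 and 0.03. The counts too are near the shares of all genes (11.3% to 12.0% higher, 6.72% to 7.64% lower). ZFP36, which promotes decay of AU-rich transcripts such as that of FOS, was at 1.11, 1.32 and 1.21, and KHSRP, another decay factor, at -1.15, -1.16 and -1.15. The second higher gene in eGFP was ZFP36L1 at 1.04, also named after its values were seen.

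Of 17 genes reported elsewhere as AP-1 targets, 16 passed the filter, and 6, 5 and 5 were past 2-fold higher in Claret, eGFP and Violet, with 0 lower and medians of 0.56, 0.76 and 0.52. The share of all genes higher was 11.3%, 12.0% and 11.7%, and lower 6.72%, 7.64% and 6.92%. MMP1, the interstitial collagenase, had 6 Bulk reads against 84, 118 and 109 (3.33, 3.90 and 3.80). CXCL8 was at 1.75, 2.10 and 1.80, and VEGFA at 1.53, 1.74 and 1.66. Of the 16 genes, 13, 12 and 12 lay above Bulk in Claret, eGFP and Violet, and 3, 4 and 4 below. Those below in all 3 libraries were PLAU, the urokinase gene, at -0.57, -0.67 and -0.60, and CCND1 at -0.49, -0.48 and -0.49. PLAUR was at 0.20, 0.24 and 0.08, and AXL at 0.04, -0.10 and -0.25. The values of these 4 genes were given after they were seen. Whether the members act on any of these genes was not tested.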

How the data were processed

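RNA was sequenced from 4 sorted populations of MDA-MB-231 cells, 1 library each, prepared, per the labels' protocols, with the NEBNext Ultra RNA kit. The deposited count table holds whole-number read counts per gene, and the submitters' processing notes name HISAT2 2.0.5 and featureCounts 1.5.0-p3; settings and use of strand are not given in the sources used here. The deposited FPKM values follow, by the authors' computation, from those counts and gene lengths equal to the union of GENCODE 29 exons for the 7 members, with library totals of 96.9% to 103.5% of the summed counts. Coordinates are GRCh38, and 58724 of 58735 genes match GENCODE 29.

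Log2 ratios used TMM-scaled CPM (edgeR 4.0.16) with a prior count of 2 over genes with a mean of at least 1 CPM. The planned form of test, edgeR's quasi-likelihood fit, cannot estimate spread from 1 library per group, so no p-value was computed and a gene was called past 2-fold. Read-ratio intervals are 95% exact (Clopper-Pearson), and intervals of FPKM shares and sums come from Poisson error of the counts by the delta method, on the log-odds scale for shares. The zero floor is 3 counts. The GC correction subtracted a lowess curve (fraction 0.3) over GC content of the longest transcript. Functions were tested on simulated data. Alternatives were library totals, DESeq2 1.42.0 size factors, other filters, prior counts and lengths, GC correction and groups from the treatment field. The members and lists were chosen with earlier results of these data known. Named genes are the 7 members, overlapping genes, the nearest gene to each member by distance of centred log2 CPM, and up to 3 genes per list past 2-fold in all 3 slow-cycling libraries.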

Additional observations from a re-analysis of the deposited data

How the results depend on the processing

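Library totals and a prior count of 0.5 left all 27 values computed with each (7 log2 ratios and 2 counts of members per library) in place. Using no filter or a filter at 10 CPM could not change these values, because all 7 members passed each filter and the library scaling was kept. The filters changed only the set of genes beside which the members were counted. The number of members past 2-fold higher was 1 in place of 2 after the GC correction in Claret, eGFP and Violet. It was also 1 in Violet on the log2(FPKM + 1) scale or with size factors from DESeq2, and the gene lost was JUND. Of the 14585 genes kept, 1573 (Claret), 1645 (eGFP) and 1598 (Violet) were past 2-fold higher after the GC correction. In Violet the number was 533 on the log2(FPKM + 1) scale and 1585 with DESeq2 size factors, against 1708 in the main setting. With GC correction the JUN-family mix change was 16.5 points in Claret and 13.7 in Violet, and the log2 change of the JUN-to-FOS ratio was 1.28, 1.48 and 1.34 in Claret, eGFP and Violet. The FOS-family mix change was 14.0, 15.0 and 7.51 points from reads with no length and 13.1, 13.9 and 6.99 with coding length, because FOSL2 is the longest gene. The JUN-to-FOS change in Violet was 1.34 from reads with no length and 1.32 with coding length. Coding length was taken from GENCODE 29 and chosen after the data were seen, as were all alternatives for the JUN-to-FOS ratio; the planned protein-based length was not run.

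Groups from the treatment field exchange the libraries, and values changed accordingly. In Claret the JUN-to-FOS change was -1.41, the log2 ratios of JUNB and JUND were -1.71 and -1.04, the share changes of JUN and JUNB were 16.4 and -14.4 points, and 0 members were higher and 2 lower. The JUN-to-FOS change was -0.049 in eGFP and 0.16 in Violet. The JUN-family mix change was 16.4, 3.37 and 3.95 points in Claret, eGFP and Violet, and the FOS-family mix change was 4.12 in Claret and 3.27 in eGFP. In both eGFP and Violet 0 members were higher, and in eGFP 0 were lower. Of the 14585 genes kept, 1010 were then past 2-fold higher and 1708 lower in Claret. Few genes passed that limit in the other comparisons, 48 higher and 106 lower in eGFP, and 55 and 133 in Violet. No paired analysis was possible because each group has 1 library. Leaving out a library was not possible for the same reason.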

Other observations

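The 7 genes were set beside all genes that the deposited table assigns to the bZIP transcription factor family. These are 48 genes, with a summed level of 887 FPKM in Bulk against 1364 (Claret), 1363 (eGFP) and 1233 (Violet). The FOS and JUN genes held 47.2% of that sum in Bulk against 38.1% (Claret), 40.0% (eGFP) and 37.2% (Violet), although their own sum was higher in each slow-cycling library. The remaining bZIP genes summed to 468 FPKM in Bulk against 844 (Claret), 817 (eGFP) and 775 (Violet), of which ATF4 alone held 92.9 FPKM in Bulk and 333, 312 and 292 in the others.

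Among 9754 other protein-coding genes with a mean of at least 10 CPM, the gene whose pattern over the 4 libraries lay nearest to each member was found by Euclidean distance of centred log2 CPM. For JUNB it was CEACAM19 (distance 0.03), with 69 reads in Bulk against 295 (Claret), 314 (eGFP) and 233 (Violet), and 27 genes lay within 0.25. For JUND it was RTN4RL2 (0.04; 295 genes within 0.25), for FOS it was G0S2 (0.07; 111 genes) and for FOSB it was WTIP (0.18; 2 genes). For JUN, FOSL1 and FOSL2 the nearest were EZH1, SURF6 and GCDH, and 1207, 2008 and 552 genes lay within 0.25. Within 0.25 there were thus few genes for FOSB and JUNB and many for JUN and FOSL1. The values were centred but not scaled, so these counts also depend on the size of each member's change. Each distance rests on 4 libraries and was not tested.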
